A study of Mus musculus with 28 samples.

Results

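The cytosolic ribosomal protein genes were examined for N6-methyladenosine (m6A) peaks in newborn and 7-day-old mouse brain. Members were chosen by symbol alone: protein-coding genes named Rpl or Rps with a number, the acidic stalk genes Rplp0, Rplp1 and Rplp2, and Rpsa, without the Rps6k kinases and the paralogs ending in l1. This gave 90 of the 21951 protein-coding genes of the annotation, 55 with a large-subunit and 35 with a small-subunit symbol. The symbols also took in 6 genes with a pseudogene name that are annotated as protein-coding, and Rps19bp1, whose product binds the ribosomal protein RPS19 and is not itself a part of the ribosome. m6A-seq enriches RNA fragments with an anti-m6A antibody (immunoprecipitation, IP), and stretches where the IP reads pile up are listed as peaks. The animals were hybrids of the inbred strains PWK/PhJ (PWK) and C57BL/6J (C57): the mother was PWK in the F1i cross and C57 in the reciprocal F1r cross. All groups were F1 hybrids, with no further treatment or targeted allele named in the labels. Peak lists were analysed for 14 IP libraries: 2 of P0 cerebellum, both labelled male, and 4 each of P7 cerebellum, P0 cerebrum and P7 cerebrum, each 4 made of a male and a female of either cross.

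The proteins of the cytosolic ribosome are made from housekeeping genes, whose mRNAs are short, among the most abundant of a cell, and translated in step through a pyrimidine tract at their 5′ end. m6A is deposited in the nucleus by the METTL3-METTL14 methyltransferase at the consensus DRACH (D is A, G or T; R is A or G; H is A, C or T), most often as GGAC, and is found mainly near stop codons, in 3′UTRs and in long exons. Exon junction complexes are known to keep the methyltransferase away from the RNA close to splice junctions, so that transcripts made of short exons carry little m6A.

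The lists held 16687 to 26208 peaks per library, and IP depth relative to the mean of the 14 libraries, read from the background of each list, ranged from 0.566 to 1.59. The study's sample sheet has a batch of cerebellum libraries and a batch of cerebrum libraries, and in every comparison of the tissues the batch cannot be told apart from the tissue. All 8 cerebrum marker genes had a peak in all 8 cerebrum libraries and on average in 2.88 of the 6 cerebellum libraries. The 8 cerebellum markers had one in 4.50 of 6 cerebellum and 2.50 of 8 cerebrum libraries on average, and Gabra6, a marker of mature granule cells, had none in any. The 3 red cell markers were at 0 in every library. The library labelled P7 cerebrum male F1r held 7 peaks on Xist and 0 on 4 Y-linked genes, and that labelled P7 cerebrum female F1r held 3 and 1. The other cerebrum libraries labelled male held 1 to 2 and 4 to 6, and the others labelled female 6 to 7 and 0. The first library thus went against its sex label, and the second lay between the sexes. P0 cerebellum male F1r and P7 cerebellum male F1i held 0 of both, so these peaks are an uncertain sign of sex. The sex labels of the 2 P7 cerebrum F1r libraries are in doubt. The tissue calls, the number of members with a peak and the comparison of the crosses are also given without them.

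The sequences near the strongest summits of the few peaks found are shown first. Whether the marked motifs carry m6A was not tested. The 30 bases around the motif nearest the strongest summit are given below for the 5 regions with a GGAC within 25 nt of it. They run 5′ to 3′ on the transcript strand of the C57 reference (mm10, GRCm38.p6), with the GGAC in capitals. Library counts are of peaks anywhere in the region, so the summit of a library can lie at another site.

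Rps19bp1, chr15:80260947-80260976, minus strand, 3′UTR, 14 libraries: ggaggaatggtggGGACaaaagacactaac

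Rpl15, chr14:18268952-18268981, minus strand, 3′UTR, 8 libraries: aataaacaatttaGGACagtcatttctgct

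Rpl22, chr4:152332528-152332557, plus strand, 3′UTR, 4 libraries: tggaaatgacagGGACtttaactgggctgc

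Rpl36, chr17:56613680-56613709, plus strand, end of exon 2 and intron, 3 libraries: ggtgagtgctggGGACgcgaccgcctcgtc

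Rps2, chr17:24720706-24720735, plus strand, coding sequence, 1 library: gggctggccagcGGACcaggttcaaggttg

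The A of the Rpl36 motif lies 14 nt past the end of the exon, so this GGAC is not part of the spliced mRNA. The coding region of Rpl36al had a DRACH match other than GGAC beside its strongest summit, in capitals below. In some other cerebrum libraries a GGAC lay 18 to 25 nt before the summit of this region. The regions of Rpl29 and Rps9, the cerebellum peaks, had no DRACH within 25 nt of the summit. For Rpl29 and Rps9 the 30 bases around the summit are printed without capitals.

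Rpl36al, chr12:69183053-69183082, minus strand, coding sequence, 8 libraries: cagcctcacaaagTGACCcagtataagaag

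Rpl29, chr9:106431418-106431447, plus strand, coding sequence, 6 libraries: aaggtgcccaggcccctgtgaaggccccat

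Rps9, chr7:3706775-3706804, plus strand, coding sequence, 3 libraries: gccaagaaaggccagggcggggctggagct

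Peaks on ribosomal protein genes were rare. Over all 14 libraries, 8 of the 90 members (8.89%) had a peak on their strand in at least 1 library, against 48.6% of all protein-coding genes. These were Rps19bp1, Rpl36al, Rpl15, Rpl29, Rpl22, Rpl36, Rps9 and Rps2, and the other 82 had none. A gene without a listed peak had no stretch past the authors' threshold, which does not show that its mRNA carries no m6A. Per library, 2 to 5 members had a peak (mean 3.43 ± 1.09, SD, n = 14, or 3.33 without the 2 libraries in doubt), or 3.81% ± 1.21 of them, while 38.2% ± 1.76 of the other protein-coding genes did. The highest share of members in any library, 5.56%, was thus far below the lowest share of other genes, 35.7%. Only Rps19bp1 had a peak in all 14 libraries, 1.11% of members, whereas 28.5% of all protein-coding genes did. Without Rps19bp1 and the pseudogene-named symbols, 7 of 83 genes (8.43%) had a peak in any library, 1 to 4 per library, and 0 of them in all 14.

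Other lists of the translation machinery had a peak in 39.5% to 50.5% of their genes per library. Of 78 mitochondrial ribosomal protein genes, which build the separate ribosome of that organelle, 35 to 46 had a peak per library (50.5% ± 4.74, SD, n = 14), and 59 (75.6%) had one in any library. Translation factors, taken by their Eif and Eef symbols, stood at 39.5% ± 5.79 of 68 genes, and ribosome biogenesis genes at 43.6% ± 5.91 of 30. The Eif symbols took in Eif2ak4, which codes for a kinase of an initiation factor and not for such a factor. The kinases of the Rps6k family, which share the symbol prefix but phosphorylate ribosomal protein S6 and other targets, had a peak in 9 of 10 genes. Of the paralogs left out by the rule, Rpl7l1 had a peak in 2 cerebellum and 5 cerebrum libraries, and Rpl22l1 in 1 cerebrum library. Fau and Rack1, which code for ribosomal proteins under other names, had none in any library, like most members. Tested by tissue as below, 2 mitochondrial ribosomal protein genes were called in cerebrum (Mrpl57 and Mrps33) and 1 in cerebellum (Mrpl3), out of 30 tested. Of 25 translation factors tested, 4 were called in cerebrum (Eef1a2, Eif1b, Eif2ak4 and Eif5) and 1 in cerebellum (Eif4g2). Of 8 ribosome biogenesis genes tested, 1 was called, Tsr1 in cerebellum. Over all genes tested, 7.77% were called in cerebrum and 3.33% in cerebellum, and these lists are too small to set apart from that.

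**Figure D1:**
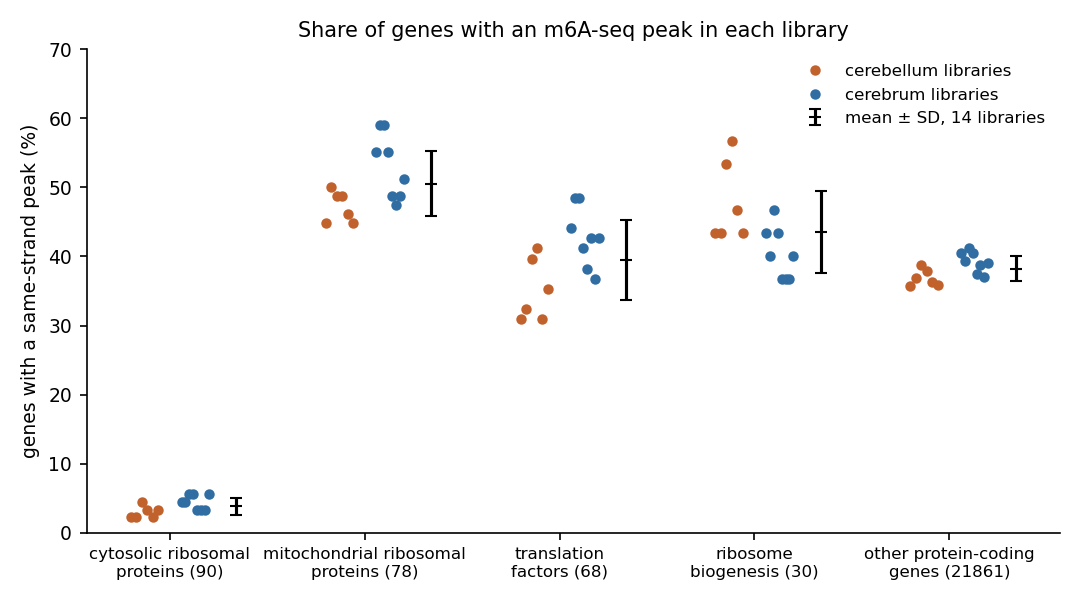
Share of genes with a same-strand peak (%, vertical axis) in each of the 14 libraries, for 5 gene lists with their number of genes in parentheses. Points are libraries coloured by tissue and bars are mean ± SD. Cytosolic ribosomal protein genes lie between 2.22% and 5.56%, and the other lists between 30.9% and 59.0%.

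Member transcripts differed from other transcripts in length and exon layout. Their principal transcripts had a median spliced length of 846.5 nt, against 2578 nt for the other protein-coding genes and 1302 nt for the mitochondrial ribosomal protein genes. The median 3′UTR was 91 nt in members, 330 nt in the mitochondrial list and 775 nt in other genes, and the median last exon was 214, 588.5 and 1168 nt, respectively. The longest internal exon, 152.5 nt in the median, was closer to the mitochondrial list (164.5 nt) than to other genes (213 nt). A GGAC was present in 87 of 90 members. The median number per transcript was 3 in members, 6.5 in the mitochondrial list and 10 in other genes, and in the 3′UTR 0, 1 and 2, while the median density per kb of transcript was 3.61, 3.73 and 3.98. The last exon held a GGAC in 48 members (53.3%), against 91.0% of the mitochondrial list and 88.5% of other genes.

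Members had the lowest share in each class of length, but the longest classes held few of them. There were 4 members of over 2000 and up to 4000 nt, 1 of over 4000 nt, and 3 with a 3′UTR of over 1500 nt. Among genes with a spliced length up to 1000 nt, 4 of 59 members had a peak in any library (6.78%), as did 338 of 2693 other genes (12.6%) and 20 of 25 mitochondrial ribosomal protein genes (80%). Between 1000 and 2000 nt the shares were 11.5% of 26 members, 31.0% of 5322 other genes and 75% of 28 mitochondrial ribosomal protein genes. Of the 14 members with a 3′UTR of over 500 and up to 1500 nt, 1 had a peak (7.14%), against 55.1% of 6709 other genes. These shares are descriptions, and the expression of the genes was not analysed here. Length was that of the annotated principal transcript, the longest one where annotation rank and coding length tied. For Rps15a and Rps20 its 3′UTR was 4731 and 3170 nt. Whether these isoforms or shorter ones were present was not tested, so the longer classes may not match the length of the mRNAs present.

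**Figure D2:**
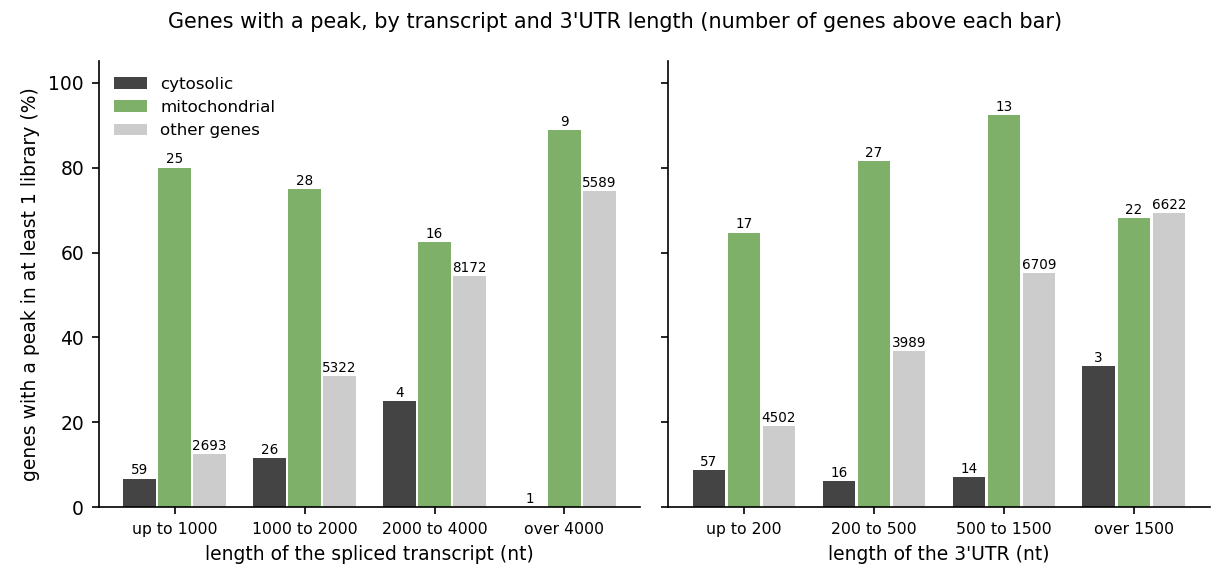
Percentage of genes with a peak in at least 1 of the 14 libraries (vertical axis) by spliced transcript length (left, nt) and 3′UTR length (right, nt), for cytosolic ribosomal protein, mitochondrial ribosomal protein and other protein-coding genes. Numbers above bars are genes. The cytosolic bars are the lowest of the 3 in every length class.

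The design allowed a test of tissue on the presence of a peak. Of 4414 genes with a peak in some but not all libraries, 343 (7.77%) were called higher in cerebrum and 147 (3.33%) higher in cerebellum at an adjusted p of at most 0.05 (two-sided Fisher's exact test, Benjamini-Hochberg). When every list was reduced to the same number of peaks, the split was 203 in cerebrum and 268 in cerebellum. Of the 7 members tested, 3 passed: Rpl15 and Rpl36al in cerebrum and Rpl29 in cerebellum. Each gene's call is of presence of a listed peak, and in a tissue extract fewer cells with the transcript and less RNA per cell cannot be told apart. Replicates were separate labelled samples. The test counts libraries with and without a peak, treats them as independent and pools ages, sexes and crosses. Its p-values do not measure a spread between replicates.

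**Figure D3:**
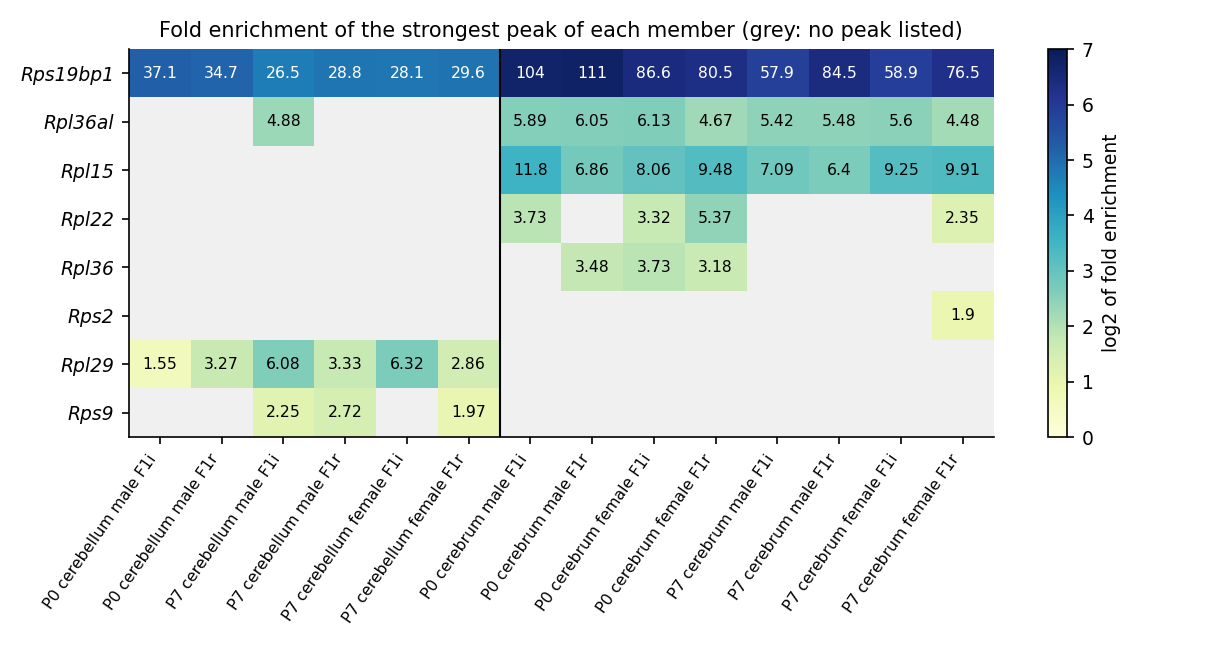
Fold enrichment (printed, colour on a log2 scale) of the strongest peak of the 8 member genes with a peak (rows) in the 14 libraries (columns, with a line between cerebellum and cerebrum). Grey marks no listed peak, and for Rpl36al the strongest peak lies in either of its regions. Rpl29 and Rps9 have peaks in cerebellum libraries alone, and Rpl15, Rpl22, Rpl36 and Rps2 in cerebrum libraries alone.

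Rpl15, which codes for a large-subunit protein and is mutated in Diamond-Blackfan anaemia, had a peak in all 8 cerebrum and 0 of 6 cerebellum libraries (Fisher's exact p = 0.000333, the smallest that 6 against 8 libraries allow, and adjusted p = 0.00574). Fold enrichment over the local background was 11.8, 6.86, 8.06 and 9.48 in the P0 cerebrum libraries (male F1i, male F1r, female F1i, female F1r) and 7.09, 6.40, 9.25 and 9.91 in the P7 cerebrum libraries in the same order. The 2 ages overlapped. The peaks stood between the 60.7 and 80.7 percentile of −log10 q of their lists (the share of the list's peaks with a lower value), and all summits lay 38 to 46 nt past the stop codon in the 3′UTR (region chr14:18268902-18269070). The A of the GGAC shown above was 2 to 10 nt from the summit in every library.

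Rpl29, a large-subunit protein known also as a heparin-binding surface protein, was the reverse: 6 of 6 cerebellum and 0 of 8 cerebrum libraries (Fisher's exact p = 0.000333, adjusted p = 0.00574). Its fold enrichment was 1.55 and 3.27 in the P0 cerebellum F1i and F1r libraries. In P7 cerebellum it was 6.08 (male F1i), 3.33 (male F1r), 6.32 (female F1i) and 2.86 (female F1r). The lowest P7 value lay between both P0 values, so the ages overlapped. The P0 F1i peak was weak, at the 2.07 percentile of its list, and with peaks of a −log10 q of at least 5 alone Rpl29 had one in 5 of 6 cerebellum libraries (Fisher's exact test, adjusted p = 0.0337). Summits lay 14 to 55 nt before the stop codon, in the coding part of the last exon (region chr9:106431366-106431499). Here the local background was 29.0 to 102 times the lowest of the list, higher than at 95.4% to 99.5% of the peaks of the same libraries, and the pileup was 123 to 349 reads. No GGAC or other DRACH lay within 25 nt of any of the 6 summits.

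Rpl36al, a paralog of the X-linked Rpl36a on chromosome 12, had a peak in 8 of 8 cerebrum libraries and 1 of 6 cerebellum libraries (Fisher's exact p = 0.003, adjusted p = 0.0327). It had 2 regions. The coding region (chr12:69183042-69183146) had a peak in all 8 cerebrum and 0 cerebellum libraries (Fisher's exact test, adjusted p = 0.0066), with a fold of 3.37 to 6.05. The region in the annotated 5′UTR (chr12:69183908-69184006) had a peak in 4 cerebrum libraries and in the P7 cerebellum male F1i library, where the fold was 4.88 (Fisher's exact test, adjusted p = 0.624). The principal transcript is a single exon of 1276 nt with an annotated 5′UTR of 877 nt. All its peaks also lay on Gm49383, a readthrough gene on the same strand, so they cannot be assigned to Rpl36al alone, and with peaks on more than 1 gene left out Rpl36al had none. Without the P7 cerebellum male F1r, female F1i or female F1r library in turn, its adjusted p was 0.0562, 0.0513 and 0.0566 (Fisher's exact test). Without both libraries whose sex labels are in doubt, 2 members were called by tissue: Rpl15 and Rpl29, each with an adjusted p of 0.0335, while that of Rpl36al was 0.116 (Fisher's exact test).

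In regions rather than genes, 2386 of 24722 tested regions (9.65%) were called by tissue. The members had 9 regions, of which 8 were tested and 3 were called: the Rpl15 and Rpl36al coding regions in cerebrum and the Rpl29 region in cerebellum, each with an adjusted p of 0.0066. Without both libraries in doubt, 3 member regions were called as well. The Rps19bp1 region was in all libraries and had no test.

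Of the 4 members tested by tissue and not called, Rpl22, a large-subunit protein and RNA-binding regulator of T cell development, had a peak in 4 cerebrum and 0 cerebellum libraries (Fisher's exact test, adjusted p = 0.258). Its fold was 3.73 in P0 cerebrum male F1i, 3.32 in female F1i and 5.37 in female F1r, and 2.35 in the library labelled P7 cerebrum female F1r, the lowest. That last peak stood at the 0.02 percentile of its list, so the other 3 were the stronger ones. The first 3 summits lay 114 to 121 nt past the stop codon with the GGAC 0 to 7 nt away, and the weakest summit 67 nt past it with no GGAC near. Rps9, a small-subunit protein at the entry of the mRNA channel, had a peak in 3 P7 cerebellum libraries (Fisher's exact test, adjusted p = 0.194). Its fold was 2.25 (male F1i), 2.72 (male F1r) and 1.97 (female F1r), 27 to 43 nt before the stop codon, with a local background of 145 to 152 times the lowest of the list.

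Rpl36, a large-subunit protein, had a peak in 3 of the 4 P0 cerebrum libraries and in none of the others (Fisher's exact test, adjusted p = 0.423). Its fold was 3.48 (male F1r), 3.73 (female F1i) and 3.18 (female F1r), all close together. The strongest summit was at the last base of exon 2, which is 95 nt long. Rps2, which like Rps9 codes for a protein at the mRNA entry, had 1 peak in the library labelled P7 cerebrum female F1r, with a fold of 1.90 at the 0.19 percentile of the list (Fisher's exact test, adjusted p = 1). Its summit was the first base of the peak, which also overlapped the small nucleolar RNA Snora64. Rps2 was the only member whose presence rested solely on a library with a sex label in doubt, so 7 of 90 members had a peak without it. Without both libraries in doubt, Rpl22 had a peak in 3 of the 6 cerebrum libraries left.

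Rps19bp1, whose product is also known as a regulator of the deacetylase SIRT1, had a single peak in every library. The peak stood between the 93.4 and 98.1 percentile of its list, in the 3′UTR 33 to 161 nt past the stop codon. Its summits were not at a single site. The GGAC printed above lay 7 to 14 nt before the summits at 33 to 40 nt. The summit at 54 nt (P0 cerebellum male F1i) and those at 150 to 161 nt had another GGAC nearest. The fold was 37.1 and 34.7 in P0 cerebellum (F1i, F1r) and 26.5, 28.8, 28.1 and 29.6 in P7 cerebellum (male F1i, male F1r, female F1i, female F1r). In cerebrum it was 104, 111, 86.6 and 80.5 at P0 and 57.9, 84.5, 58.9 and 76.5 at P7, in the same order. The 2 tissues did not overlap. The local background under these peaks was 9.54 to 16.3 times the lowest of the list in cerebellum and 2.69 to 4.51 times in cerebrum, while the pileups, 194 to 453 and 201 to 465 reads, overlapped. Over all peaks of a list the median background was 3.69 to 4.29 times the lowest in cerebellum and 1.38 to 2.18 times in cerebrum, so fold values were not compared between the tissues by a test.

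The 52 member peaks fell into a few positions. Of these, 26 lay in the 3′UTR, 21 in coding sequence and 5 in an annotated 5′UTR, by summit, and 0 in introns. A GGAC whose A lay at most 25 nt from the summit in the genome was present at 35 of 52 summits, and at 32 when sought along the spliced transcript, which drops the 3 Rpl36 summits. Any DRACH was present at 39 of 52. This motif is common, with a median of 18.1 per kb in member transcripts, and its share at all exonic summits was not measured. Per library the GGAC share was 65.0% ± 26.8 (SD, n = 14, 2 to 6 summits each) against 48.5% ± 4.03 at all exonic summits. Rps19bp1 had the motif in all 14 libraries and carried much of that mean: without it and the pseudogene symbols the share was 45.5% ± 44.0. By tissue and without Rps19bp1, 0 of 10 cerebellum summits and 21 of 28 cerebrum summits had a GGAC, 3 of the latter being the intronic one of Rpl36. The 10 cerebellum summits came from Rpl29, Rps9 and Rpl36al, and summits of 1 gene share their sequence, so these are counts of few sites.

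**Figure D4:**
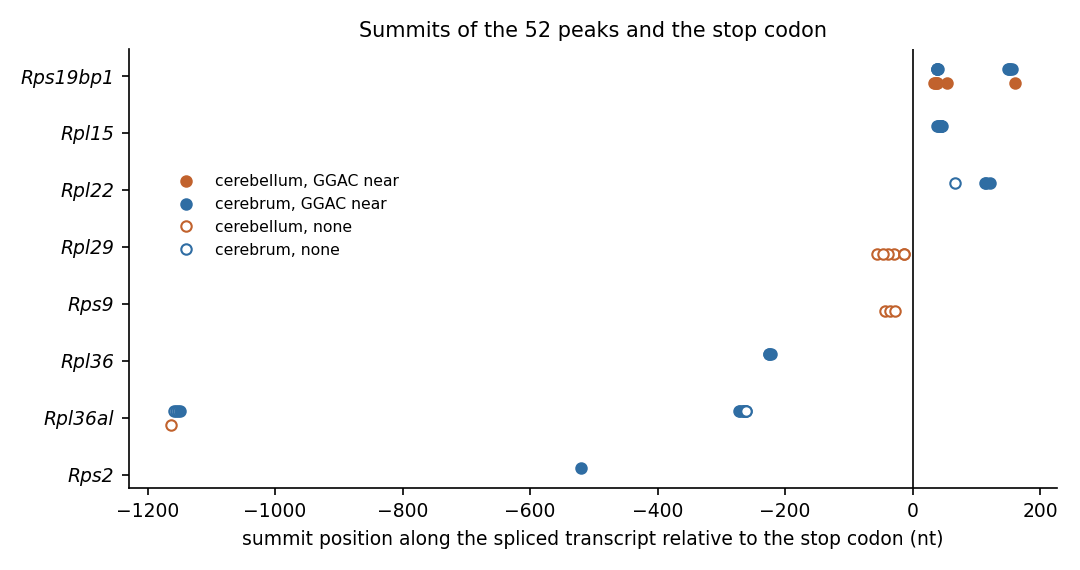
Position of the 52 member summits along the spliced transcript relative to the stop codon (nt, horizontal axis, negative in front of it), by gene and tissue. Filled points have a GGAC whose A is at most 25 nt from the summit in the genome, which for Rpl36 lies in the intron. Rps19bp1, Rpl15 and Rpl22 summits lie past the stop codon, and Rpl29 and Rps9 summits up to 55 nt before it.

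The fold of a peak and the background under it differed between genes. The cerebellum peaks of Rpl29 and Rps9 had backgrounds of 29.0 to 152 times the lowest of their lists, with folds of 1.55 to 6.32, and the cerebrum peaks of Rpl15 had 12.3 to 17.9 times, with folds of 6.40 to 11.8. The Rps9 backgrounds exceeded those of 99.7% of the peaks of their libraries. A high rank was not particular to the cerebellum peaks. In cerebrum the share was 96.0% to 98.3% for Rpl15 and 99.0% to 99.3% for Rpl36. Multiples of the lowest background also differed between the tissues over all peaks, as given above. The part of the local background in the presence of the member peaks was not tested.

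**Figure D5:**
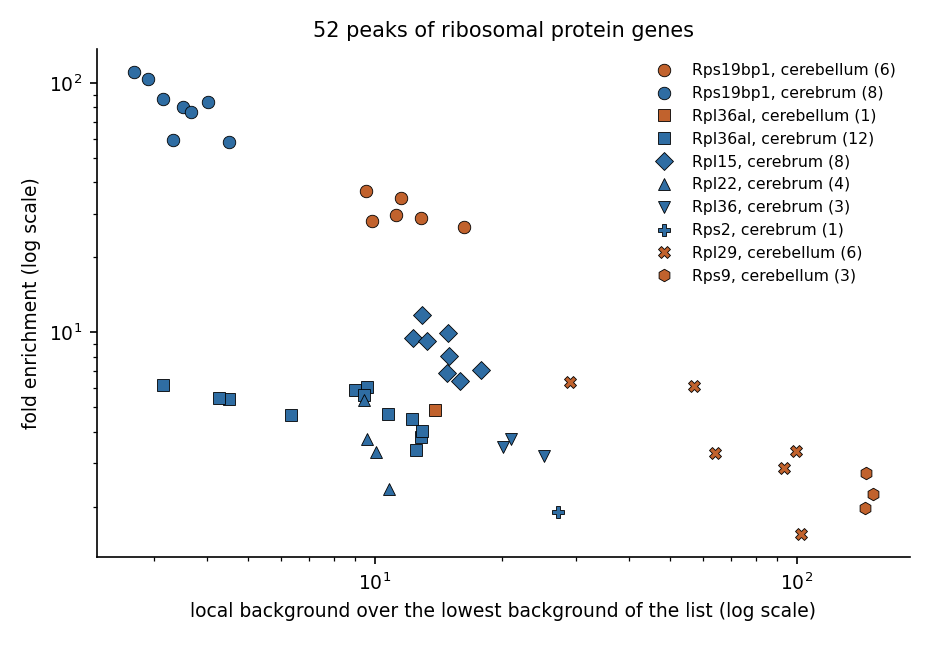
Fold enrichment (vertical, log scale) against the local background divided by the lowest background of the list (horizontal, log scale) for the 52 member peaks, by gene (shape) and tissue (colour). Number of peaks in parentheses. Rps19bp1 has the highest folds, 26.5 to 111, and Rpl29 and Rps9 the highest backgrounds.

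No member met the rule for an age in cerebrum or for the direction of the cross. With only 3 members scored for age and 7 for cross, a count of 0 is near the share over all genes and says little about the members. Of 3 members with a peak in some but not all cerebrum libraries, 0 had one in all 4 libraries of an age and 0 of the other, against 239 of 2545 genes (9.39%), and Rpl36 came nearest, with 3 of 4 at P0 and 0 of 4 at P7. The number of member genes with a peak was 4, 4, 5 and 5 in P0 cerebrum and 3, 3, 3 and 5 in P7 cerebrum (male F1i, male F1r, female F1i, female F1r). In cerebellum it was 2 and 2 at P0 and 4, 3, 2 and 3 at P7. The 4 groups overlapped except that P0 cerebellum lay below all P0 and P7 cerebrum libraries. Of 7 F1i-F1r pairs of the same tissue, age and labelled sex, 4 had equal numbers of member genes with a peak, 1 had fewer in F1r and 2 had more. Without the P7 cerebrum pairs, which hold the libraries in doubt, the numbers were 3, 1 and 1 of 5. No member of 7 tested had a peak in only 1 cross in at least 5 pairs and the opposite in none, against 6 of 4414 genes (0.136%).

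The members without a peak covered every functional class examined. The acidic stalk, which recruits translation factors to the ribosome, had 0 of 3 (Rplp0, Rplp1 and Rplp2), and so did Rpl5, Rpl11 and Rpl23, whose proteins bind the p53 regulator MDM2. None of the X-linked Rpl10, Rpl36a, Rpl39 and Rps4x had a peak. Rpsa, a laminin receptor as well as a ribosomal protein, and Rps27a, made as a fusion with ubiquitin, had 0 as well. Of 18 genes mutated in Diamond-Blackfan anaemia, an inherited failure of red cell production, Rpl15 alone had a peak, and of 6 paralogs and retrogene copies, Rpl36al alone. In symbol order the first of the 82 were Rpl10, Rpl10-ps3, Rpl10a, Rpl10l, Rpl11, Rpl12, Rpl13, Rpl13a, Rpl14 and Rpl17.

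Ribosomal protein mRNAs are known to have many processed pseudogenes, and 1 alignment was kept per read. How many reads of the members were placed on such copies was not measured here. Of 294 annotated ribosomal protein pseudogenes, 2 had a peak on their strand: Rps19-ps3 in 2 cerebellum and 8 cerebrum libraries and Rpl13-ps1 in 1 cerebrum library. Peaks on the opposite strand of members were kept apart. Among others, Rps28 had one in all 14 libraries, Rpl5 in 4 cerebrum, and Rpl28 and Rpl7a in 1 library each. With strand ignored, 13 members had a peak in any library.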

How the data were processed

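The 28 labelled samples were 14 m6A IP libraries and 14 inputs, and the inputs were not analysed here. Per the labels and methods, fragmented RNA was barcoded, pooled and immunoprecipitated, and reads were trimmed, stripped of molecular identifiers (fastp 0.21.0), aligned with HISAT2 2.1.0 to an mm10 genome masked at C57/PWK differences with 1 alignment per read, freed of PCR duplicates and divided by strand. Labels name polyadenylated RNA and the methods name also ribo-depleted RNA. The authors called peaks per library and strand with MACS2 2.1.2 (extension 80 nt), without pooling. The control library of each call is not given in the sources used here.

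The deposited ratio of each peak is the fold of the summit's IP pileup against its local background, and the authors' −log10 p-value and −log10 q-value come from the same call. Peak heights therefore belong to their list, and lists were compared by presence. The lists hold no counts: pileup and background were solved from fold and −log10 p, and gave a whole pileup (tolerance 0.02 in −log10 p) for 100% of peaks in every library. The lowest background of a list gave relative depth, and absolute depth is unknown.

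A gene had a peak if a listed peak overlapped its span (GENCODE M21, mm10) on its strand by at least 1 bp. Transcript features came from 1 principal transcript per gene (the longest where annotation rank and coding length tied), and motifs from the C57 reference. Presence was tested by tissue (6 cerebellum, 8 cerebrum libraries) with Fisher's exact test over all protein-coding genes, or over regions merged from all lists, with Benjamini-Hochberg adjustment, and checked on simulated data (Python 3.11.15, SciPy 1.17.1, NumPy 2.4.6). Age in cerebrum was described by counts, since 4 against 4 libraries cannot pass the adjustment. Cross was described by counts over the 7 matched pairs, with no test.

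Named genes were those past the tissue test, those with a peak in all 14 libraries, those with most peaks, the stalk genes, Rpsa, Rps27a, and up to 10 without a peak. The remaining genes with a peak (Rpl22, Rpl36, Rps2 and Rps9) and some with an antisense peak are named for completeness, after their values were seen. Members, lists and tests were chosen with earlier results of these data known. Alternatives were other overlap rules, a −log10 q of at least 5, equal list sizes, a 50 nt motif window, subsets of libraries, and each library left out in turn.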

Additional observations from a re-analysis of the deposited data

Results flagged for a closer look

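Within groups of 4 libraries, 1 of 14 sets of values had a library far from the other 3. For continuous values chance meets this criterion in about 1 group in 20. The library labelled P7 cerebrum female F1r had 5 member genes with a peak, while the other 3 P7 cerebrum libraries had 3 each. With 3 equal whole numbers any different value meets the criterion, so that rate does not apply here. The additional genes were Rpl22 and Rps2, at the 0.02 and 0.19 percentile of that list, and this is 1 of the 2 libraries whose sex labels are in doubt.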

How the results depend on the processing

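The count of 3 members called by tissue was the same or 2 under every alternative except those with 4 libraries against 4, where the smallest possible Fisher's exact p, 0.0286, cannot pass the adjustment. With P7 libraries alone and with libraries labelled male alone, 0 member genes and 0 member regions were called, and 0 of all genes. At an unadjusted p under 0.05, 2 member genes and 3 member regions passed in either subset, with 508 and 377 of all genes. Rpl15 and Rpl29 were called in all other alternatives. Rpl36al was lost without any of 3 P7 cerebellum libraries in turn, and without both P7 cerebrum F1r libraries, and had no peak to test with peaks on more than 1 gene left out. Over all genes, leaving out 1 library gave 271 to 621 calls against 490, with the 4 lowest counts (271 to 283) from leaving out a P7 cerebellum library. Over all regions the range was 1300 to 2690, with the 6 lowest counts (1300 to 1478) from leaving out a cerebellum library. With strand ignored, 13 members against 8 had a peak in any library, 5.36 against 3.43 per library, and 1 against 0 was exclusive to an age in cerebrum (Rpl5, antisense). That count was 0 to 1 with each library left out: without the P0 cerebrum male F1i library, Rpl36 counted as exclusive to P0. The GGAC share ranged from 62.3% to 81.5% over the alternatives in list size, q, window, motif and left-out library, against 65.0%. The SD between libraries, 26.8, is too wide to judge stability by, and a wider window can only raise the share. Leaving out both P7 cerebrum F1r libraries, an alternative chosen after seeing the data, left 2 called members, Rpl15 and Rpl29, 279 calls over all genes, 3 member regions and 1432 calls over all regions against 2386. Leaving out Rps19bp1 and the pseudogene symbols, also chosen then, could not change the calls by tissue, since those genes had a peak in all libraries or in none. The labels carry no replicate numbers and name no animal. Whether the tissues share animals is therefore unknown, and no paired analysis of the tissues was made. Absolute depth is unknown, and the peaks of Rps2, of Rpl22 at P7 and of Rpl29 in P0 cerebellum F1i had the lowest −log10 q of the member peaks.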
